A study of Mus musculus with 6 samples.

Results

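Expression of 9 genes of the neuronal lineage and of neurites was followed in RNA-seq libraries of mouse neural stem/progenitor cells (NSPCs): Dlx2, Sox11, Dcx, Map1b, Map2, Tubb3, Stmn1, Stmn2 and Gap43. They were picked by name, with earlier results of these data known, and matched to the NCBI gene identifiers of the deposited tables. All 9 were found among the 17254 genes listed in any library. The cells were a neonate-derived, immortalized NSPC culture that carries an Ink/Arf deletion in all 3 groups. The labels spell it "Ink/Ark knockout" and give it, with the strain C57BL/6, for control library 1 and PQ library 1 only. The cells grew in N2 medium with EGF and bFGF (20 ng/ml) and were kept for 48 h without treatment (control), with 5 µM paraquat (PQ), which generates superoxide inside the cell, or with 5 mM N-acetylcysteine (NAC), a thiol antioxidant. Each group had 2 libraries. The methods describe a mixed population of stem cells, neuronal precursors and oligodendroglial progenitors derived as one culture, so p-values measure the spread between these libraries, which may be technical. These were cultures in growth medium, before any step to induce differentiation.

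Newborn neurons build their processes on microtubules. Dlx2 and Sox11 are transcription factors of neuronal progenitors and newborn neurons. Tubb3 is the tubulin isotype widely used to mark young neurons, and the proteins of Dcx, Map1b and Map2 bind and stabilize microtubules. Stathmins (Stmn1, Stmn2) destabilize microtubules, Stmn1 in dividing cells as well as in neurons, and Gap43 is a membrane-bound protein of growth cones. The study asked how an oxidative or reducing preconditioning bears on the neuronal output of NSPCs, and the libraries were made at the end of that preconditioning.

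The expected counts summed to between 9680436 and 10698241 per library. Control library 1 and PQ library 1 form one batch by their labels (column extraction, Illumina), and the other 4 libraries, with both NAC libraries, form another (TRIZOL, BGISEQ-500). Values within a batch are given beside the results. The labelled cell type was checked by level. Of the neural stem cell markers, Vim, Lgals1 and Fabp7 stood highest, with means of 2070, 1840 and 808 FPKM. In the control libraries Nes had 87.74 and 91.9 FPKM, and Slc1a3 had 105.92 and 91.98 FPKM. Hes5 of that list never exceeded 3 counts in a library. Nor did 12 of 46 markers of differentiated neurons, Rbfox3 (NeuN), Celf3 and Ina among them. Uchl1, Eno2 and Nefl, the highest of those 46, averaged 138, 60.3 and 41.0 FPKM. Of the oligodendrocyte lineage, Olig1 averaged 429 FPKM and Olig2 322 FPKM, while Sox10, Mog and Mag stayed at 3 counts or fewer. Cdkn2a, the gene at the Ink/Arf locus, had 120 to 162 counts in every library. Which part of it is deleted is not given in the sources used here, so these counts do not check the deletion.

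Levels of different genes were compared in FPKM, a deposited measure that scales fragments by transcript length and by library total. In the control libraries Stmn1 stood highest at 384.32 and 348.5 FPKM, with only 0.945% of all genes above its mean. Map2 (35.63 and 34.2 FPKM), Map1b (30.35 and 28.75) and Sox11 (18.58 and 18.71) followed, in an order that held in both libraries. Gap43 had 3.98 and 3.52 FPKM. Tubb3 (2.38 and 1.3 FPKM) and Dlx2 (1.34 and 1.36) overlapped, so their order is not set. Stmn2 and Dcx lay at the bottom with at most 0.1 FPKM and likewise overlapped. The culture held abundant RNA of a stathmin shared with dividing cells and of the structural proteins MAP2 and MAP1B, and very little RNA of the genes most specific to newborn neurons. The order of the genes was not the same in the NAC libraries, where Map1b (8.85 and 10.11 FPKM) fell below Sox11 (19.09 and 19.68) and overlapped with Gap43 (8.77 and 9.4).

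**Figure D1:**
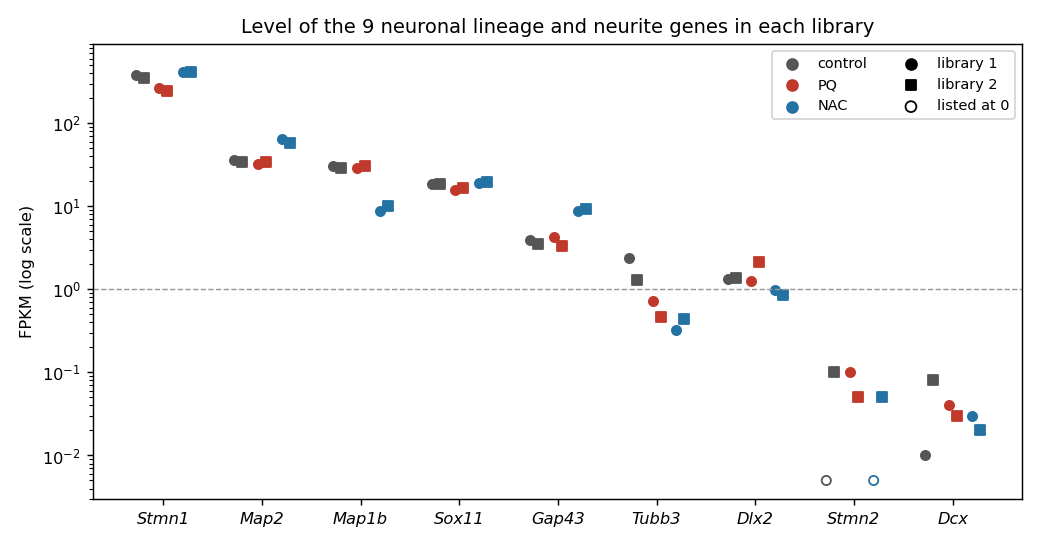
FPKM (log scale) of the 9 genes in each of the 6 libraries, ordered by the control mean; circles are library 1, squares library 2, open circles a gene listed at 0, and the dashed line 1 FPKM. Map2 and Gap43 sit higher and Map1b lower in both NAC libraries (blue), Stmn1 lower in both PQ libraries (red), and Tubb3 lower in both treatments.

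Differences between groups were tested with edgeR's quasi-likelihood test on the expected counts, over the 11717 genes with a mean of at least 1 FPKM, with Benjamini-Hochberg adjustment over all of them and a threshold of 0.05. This filter kept 6 of the 9 genes (Stmn1, Map2, Map1b, Sox11, Gap43 and Dlx2). Tubb3 just missed it with a mean of 0.938 FPKM and was tested in a fit of every gene with a count. Dcx and Stmn2 entered that fit too, but were judged too sparse, so no fold is given for them.

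Against control, 3 of the 6 tested genes passed the test in NAC and 1 passed in PQ. Map2 and Gap43 rose and Map1b fell under NAC, and Stmn1 fell under PQ. Among all genes tested, 9.01% were called higher and 9.64% lower in NAC against control, and 9.76% were called higher and 9.45% lower in PQ against control. The median log2 fold change of the 6 genes was 0.07 in NAC and -0.05 in PQ, beside medians of -0.002 and -0.001 over all genes. In PQ against NAC, 2 of the 6 were called higher (Map1b, Dlx2) and 3 lower (Map2, Gap43, Stmn1), where 16.0% of all genes were called higher and 15.7% lower. The 3 comparisons share libraries and are not independent of each other. In these bulk libraries, fewer cells of a type and less RNA per cell cannot be told apart.

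**Figure D2:**
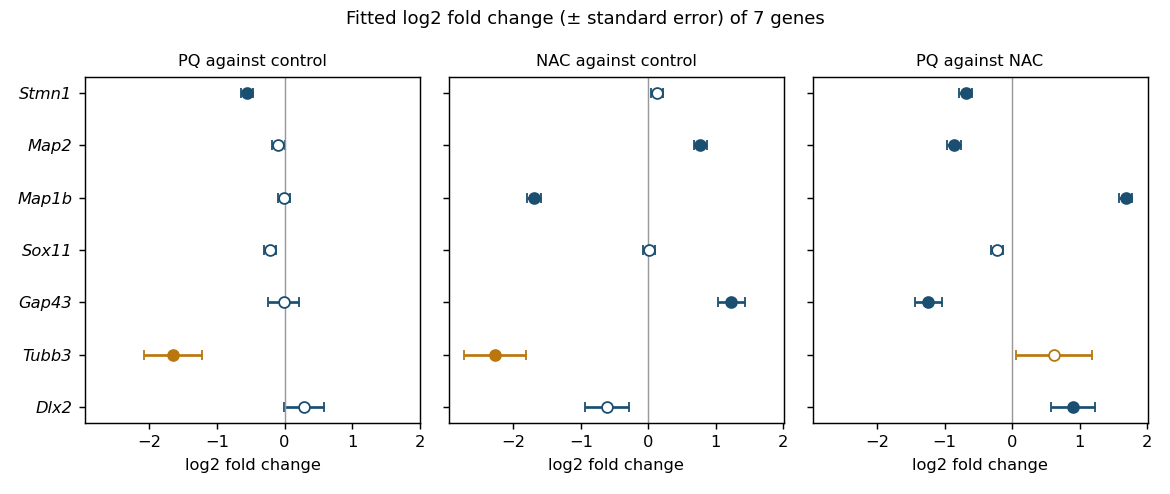
Fitted log2 fold change with its standard error for 7 genes in the 3 comparisons; filled circles passed an adjusted p of 0.05, open circles did not, and Tubb3 (orange) comes from the fit without a filter. Map1b lies at -1.69 in NAC against control and at -0.01 in PQ against control.

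Map1b, whose product stabilizes microtubules in growing axons, lies on chromosome 13 (chr13:99421464-99516602, GRCm38.p6, minus strand). Its expected counts, in the order of library 1 and library 2, were 3589 and 3466 in control, 3610 and 3587 in PQ, and 1136 and 1202 in NAC. The control and PQ libraries were intermixed, and both NAC libraries lay far below all 4 of them. In CPM, counts scaled to a common library size with edgeR's TMM factors, the means were 361.9 ± 16.5 (SD, n = 2) in control and 112.4 ± 9.74 (SD, n = 2) in NAC. The log2 fold change in NAC against control was -1.69 (SE 0.10, edgeR adjusted p = 2e-09), which corresponds to a 3.22-fold lower level. Only 0.45% of all genes tested fell this far or further. Within the batch that holds both NAC libraries, their log2 differences from control library 2 were -1.73 and -1.55. In PQ against control the log2 fold change was -0.01 (adjusted p = 0.96), and an interval of 2 SE ran from -0.20 to 0.18. Map1b also belongs to the interferon gene list that the study chose on these same samples, so its direction there is not independent evidence.

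Map2, which codes for the main microtubule-associated protein of dendrites, moved the opposite way (chr1:66175202-66442583, plus strand). Its expected counts were 1961 and 1916 in control, 1892 and 1838 in PQ, and 3873 and 3211 in NAC. Both NAC libraries exceeded the other 4, which spanned only 1838 to 1961. The mean rose from 198.9 ± 7.43 CPM (SD, n = 2) in control to 339.1 ± 29.0 CPM (SD, n = 2) in NAC, a log2 fold change of 0.77 (SE 0.10, edgeR adjusted p = 1.1e-05) or 1.71-fold. Against control library 2 of their own batch the 2 NAC libraries were higher by 0.89 and 0.72. In PQ against control Map2 had a log2 fold change of -0.09 (adjusted p = 0.55, 2 SE interval -0.29 to 0.10). The transcript length that the tables list for Map2 stayed between 5524.25 and 5535 bases in all libraries, so the rise in FPKM was not a change in the length used to scale it. Map2 overlaps Gm10558, a non-coding gene on the other strand that is not among the genes listed in any library. Whether strand was used in counting is not stated, so reads of these genes cannot be told apart.

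The stretches just before the annotated starts of Map1b, Map2 and Tubb3, are shown because these are the microtubule genes whose level differed in NAC. They are RefSeq sequences of GRCm38.p6, read 5′ to 3′ on the gene's strand, for Map1b from chr13:99516603-99516852 (minus), for Map2 from chr1:66175079-66175201 (plus, ending at the gene's outermost annotated start) and for Tubb3 from chr8:123411303-123411552 (plus). Capitals mark an E-box (CANNTG, bound by bHLH factors) or a GC box (GGGCGG), searched on both strands, and no marked sites overlap.
Map1b: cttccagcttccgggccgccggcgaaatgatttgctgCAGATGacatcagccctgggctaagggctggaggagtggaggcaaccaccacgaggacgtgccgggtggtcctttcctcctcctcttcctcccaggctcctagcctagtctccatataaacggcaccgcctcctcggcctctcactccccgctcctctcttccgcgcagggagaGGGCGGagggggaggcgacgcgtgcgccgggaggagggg
Map2: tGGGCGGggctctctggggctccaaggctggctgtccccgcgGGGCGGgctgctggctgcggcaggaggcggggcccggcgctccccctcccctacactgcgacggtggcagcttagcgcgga
Tubb3: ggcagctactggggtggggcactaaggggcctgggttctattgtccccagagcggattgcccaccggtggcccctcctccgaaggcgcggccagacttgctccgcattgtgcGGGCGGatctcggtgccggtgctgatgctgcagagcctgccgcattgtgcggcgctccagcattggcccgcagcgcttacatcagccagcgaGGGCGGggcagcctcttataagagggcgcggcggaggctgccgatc
Map1b held 1 E-box and 1 GC box, and the shown stretches of Map2 and Tubb3 held 2 GC boxes each and no E-box. The full window of Map2 held 5 GC boxes. Over all 32851 windows of 250 bases in the RefSeq table, 66.2% held an E-box and 32.7% a GC box. No letters of the antioxidant response element core (TGACNNNGC, in 10.2% of all windows) or of the FOXO core (TGTTTAC, in 3.2%) were found in the windows of these 3 genes. Windows were found for 6 of the 9 genes. Among them Dlx2 held 1 antioxidant response element core. A match describes the letters only.

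Gap43, the growth cone protein, was also higher with NAC (chr16:42248552-42340651). It had 51 and 46 counts in control, 57 and 42 in PQ, and 122 and 121 in NAC. The NAC libraries lay above every other library, and the PQ libraries bracketed the control libraries. The mean was 4.98 ± 0.467 CPM (SD, n = 2) in control and 11.7 ± 0.478 CPM (SD, n = 2) in NAC. The log2 fold change was 1.23 (SE 0.20, edgeR adjusted p = 0.00024), or 2.34-fold, with differences of 1.29 and 1.37 within the batch. In PQ against control it was -0.01 (adjusted p = 0.98). With these low counts the 2 SE interval, -0.48 to 0.45, was wider than for Map1b or Map2.

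Tubb3, the young-neuron tubulin, had few counts in every library (chr8:123411553-123422015, plus strand). They were 40.95 and 22.88 in control, 13 and 8 in PQ, and 6 and 7.67 in NAC. Both control libraries exceeded all 4 treated libraries, whereas PQ library 2 (8) and NAC library 2 (7.67) nearly met. Summed over a group and rounded, this gave 64 counts in control (exact 95% Poisson interval 49.3 to 81.7), 21 in PQ (13.0 to 32.1) and 14 in NAC (7.65 to 23.5). These intervals cover counting error only. In the fit without a filter the log2 fold change was -1.65 in PQ against control (SE 0.43, edgeR adjusted p = 0.0016) and -2.27 in NAC against control (SE 0.46, adjusted p = 1.7e-05). Of the 17209 genes in that fit, 7.53% were called lower in PQ and 7.94% in NAC. The same fit gave Map1b in NAC an edgeR adjusted p of 1.8e-58 in place of 2e-09, at the same log2 fold change of -1.69. With edgeR's filterByExpr filter the adjusted p-values of Tubb3 were larger, 0.011 in PQ and 0.0017 in NAC. The PQ call depended on the library: without control library 1 the value was -1.16 (adjusted p = 0.22), and without PQ library 2 it was -1.42 (adjusted p = 0.085). The NAC call was kept without each library, with adjusted p between 9.8e-06 and 0.036. Between PQ and NAC no difference was detectable at this depth (log2 fold change 0.62, SE 0.56, adjusted p = 0.51). Within batches the log2 difference was -1.78 and -1.47 for PQ and -2.05 and -1.60 for NAC. Both NAC values are against control library 2, which lay 0.88 below control library 1. The count of Tubb3 was fractional in 3 libraries, so some of these reads are uncertain. Tubb3 also overlaps Gm20388, a protein-coding gene on the same strand that is not among the genes listed in any library.

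Stmn1 was the most abundant of the 9 genes and the one member called lower in PQ under the filter (chr4:134468320-134473843). Its expected counts were 3975.9 and 3674.5 in control, 2873.5 and 2493.6 in PQ, and 4712.2 and 4264.4 in NAC. Both PQ libraries lay below all others, and both NAC libraries above all others. The mean fell from 392.6 ± 30.1 CPM (SD, n = 2) to 267.4 ± 9.91 CPM (SD, n = 2) in PQ, a log2 fold change of -0.55 (SE 0.09, edgeR adjusted p = 0.00036), or 1.47-fold lower. Within batches the difference was -0.59 and -0.51. In NAC against control it was 0.13 (SE 0.09, adjusted p = 0.35), a difference that did not pass the test. Stmn1 is also an RNA of dividing cells. In the same comparison 33 of 35 proliferation genes were called lower in PQ and 0 higher (also 0 at an unadjusted p under 0.05 in edgeR and 0 with DESeq2), led by Mki67 (-1.13), Aurkb (-0.96) and Mcm5 (-0.92). The summed level of these 35 genes was 2391 and 2431 FPKM in control, 1532 and 1624 in PQ, and 2723 and 2600 in NAC. Their part in the change of Stmn1 was not tested. All 6 counts of Stmn1 and of Mcm5 were fractional, so some of their reads may belong to other genes.

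Stmn2, the neuronal stathmin of growth cones, was judged too sparse to compare. It had 0 and 2 counts in control, 2 and 1 in PQ, and 0 and 1 in NAC, at most 3 in every library. Dcx, the microtubule-binding protein of migrating neuroblasts, was nearly as sparse. It had 1.29 and 7.69 counts in control, 3.97 and 2.95 in PQ, and 3.08 and 2.22 in NAC, and its groups overlapped. Summed and rounded, Dcx gave 9 counts in control (exact 95% Poisson interval 4.12 to 17.1), 7 in PQ (2.81 to 14.4) and 5 in NAC (1.62 to 11.7). No test of either gene is given at these counts.

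**Figure D3:**
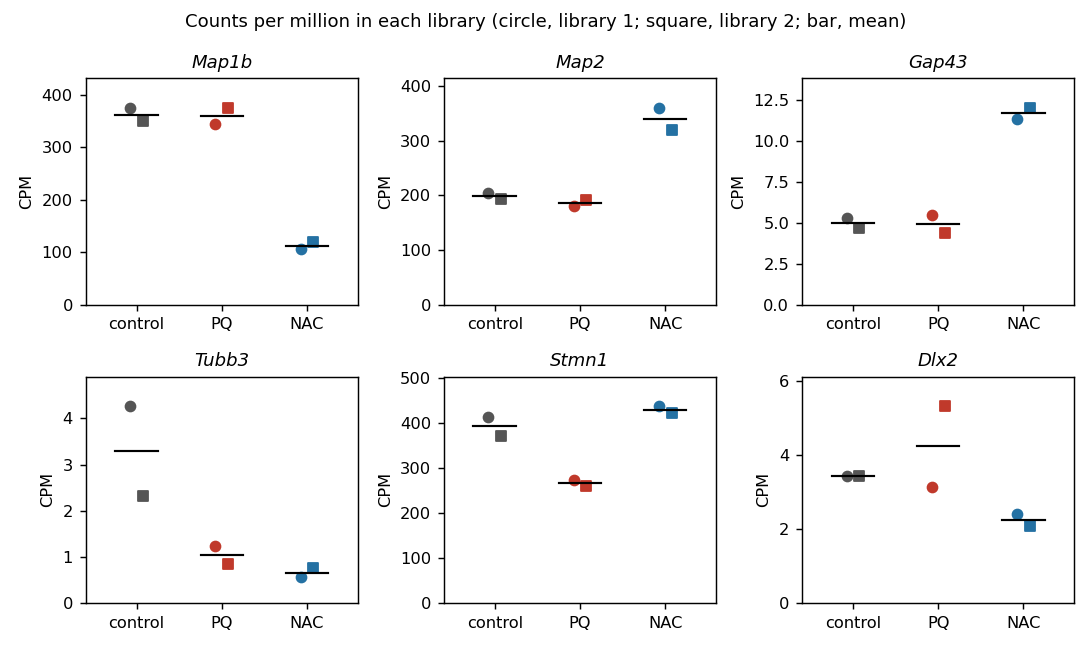
CPM of 6 genes in each library, with the mean of each group as a bar; every axis starts at 0. Map1b, Map2 and Gap43 differ in the NAC libraries, Stmn1 in the PQ libraries and Tubb3 in both treatments, whereas the 2 PQ libraries of Dlx2 lie apart from each other at 3.15 and 5.33 CPM.

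Neither transcription factor passed the test against control. Dlx2, a homeobox factor of interneuron and olfactory bulb progenitors, had 33 and 34 counts in control, 33 and 51 in PQ, and 26 and 21 in NAC. PQ library 1 matched the control libraries, and PQ library 2 stood above them. The log2 fold change was 0.29 in PQ (SE 0.30, adjusted p = 0.56) and -0.61 in NAC (SE 0.33, adjusted p = 0.23), with within-batch differences of -0.12 and 0.63 for PQ and -0.51 and -0.72 for NAC. In PQ against NAC the value of 0.90 passed the threshold (SE 0.32, edgeR adjusted p = 0.04). That call was lost under DESeq2 (adjusted p = 0.13), under limma, and without PQ library 2 (0.48, adjusted p = 0.42), NAC library 1 (1.01, adjusted p = 0.099) or NAC library 2 (0.80, adjusted p = 0.17).

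Sox11, an SRY-box factor of newborn neurons, was well covered, with 1565 and 1606 counts in control, 1396 and 1391 in PQ, and 1746 and 1667 in NAC. The CPM of both PQ libraries (133.3 and 145.3) lay below all others (162.1 to 165.4). The log2 fold change in PQ against control was -0.22 (SE 0.09, edgeR adjusted p = 0.10), which did not pass. The 2 SE interval ran from -0.41 to -0.04. In NAC against control it was 0.01 (adjusted p = 0.96, 2 SE interval -0.18 to 0.20). In PQ against NAC it was -0.23 (edgeR adjusted p = 0.064). It stayed uncalled in 12 of 15 alternatives and was called lower in the rest, with an edgeR adjusted p of 0.045 when only the libraries compared entered the fit.

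The wider families of these genes were described with lists that leave the 9 genes out. These lists, too, were chosen with earlier results of these data known. Their counts stand beside the shares over all genes given above, 9.76% higher and 9.45% lower in PQ, and 9.01% higher and 9.64% lower in NAC. Of 37 neurogenic transcription factors, 15 were tested. In PQ against control 1 was called higher and 3 lower, and without PQ library 1 these counts were 0 and 2. Among the lower ones, Sox12, a relative of Sox11 in the SoxC group, fell by 0.56 and Pou3f2 by 0.37 on the log2 scale. The Pou3f2 call was lost without either PQ library. The higher call was Eomes, a marker of intermediate progenitors (1.01, adjusted p = 0.04), which reached the filter through the PQ libraries and NAC library 2. It was lost under DESeq2, under limma, and without control library 1, control library 2 or PQ library 1. In NAC against control 2 were called higher (Pou3f1, 0.86, and Pou3f3, 0.43, the latter lost without control library 2 or NAC library 1) and 2 lower. The lower ones were Insm1, a zinc-finger factor of neuronal progenitors (-2.20, adjusted p = 9e-05), and Bcl11b (-1.61, adjusted p = 9.6e-06), both at 0.44 to 0.77 FPKM in the NAC libraries. In PQ against NAC Insm1 differed by 1.46 (SE 0.36, adjusted p = 0.0042). Eomes, Pou3f2, Insm1 and Bcl11b had fractional counts in all 6 libraries, so some of their reads may belong to other genes.

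Of 40 tubulins and microtubule-associated proteins, 33 were tested. In PQ 10 were called higher and 4 lower, with a list median of 0.10, and in NAC 3 were called higher and 7 lower, with a median of -0.08. The PQ counts were 4 and 2 without PQ library 1, 5 and 2 without PQ library 2, and 7 and 2 under limma with a pseudocount of 0.1. The NAC counts were 2 and 2 without NAC library 1, and 3 and 3 under limma, so that the calls no longer leaned to lower. The broadly used tubulin Tubb5 (-0.55) was lower in PQ under all 15 alternatives. Tubb6 (-0.45) and Tuba1b (-0.41) were called lower as well, but both calls were lost under limma and without control library 2 or PQ library 1, and that of Tuba1b also under DESeq2, with the replicate block and without PQ library 2. The kinesin Kif1a, an axonal motor, rose 1.70-fold in PQ from 12.47 and 16.34 to 26.44 and 23.51 FPKM, and Map7 had a 2.23-fold higher level, reaching the filter through the PQ libraries, a call lost without PQ library 1. In NAC, Mapt, which codes for tau, rose 1.60-fold together with Map2, and Dclk2, a relative of Dcx, rose 1.46-fold. Kif5c (-0.71) and Map6 (-0.58) fell in NAC, as Map1b did. Tubb6 was called lower too (-0.48), a call lost under limma and without control library 2 or NAC library 1. Tubb5, Tubb6 and Tuba1b, members of a family with near-identical coding sequences, had fractional counts in at least 4 libraries, and Kif1a in all 6, so their values are uncertain.

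Of 46 genes of axon growth and guidance, 31 were tested, of which 8 were called higher and 3 lower in PQ, and 5 higher and 11 lower in NAC. Without PQ library 1 the PQ counts were 2 and 0, and without NAC library 1 the NAC counts were 2 and 7. Cntn1, an adhesion molecule of axons, had the largest rise of the list in NAC, from 0.67 and 0.59 to 2.56 and 1.92 FPKM (log2 fold change 1.76, adjusted p = 1.9e-05). It reached the filter through the NAC libraries. Efnb2, a membrane-bound ephrin, was higher in PQ (0.69, adjusted p = 0.001, lost without PQ library 1) and lower in NAC (-0.82, adjusted p = 0.00037), and it differed between PQ and NAC by 1.51 (SE 0.14, adjusted p = 1.7e-07). Basp1, like Gap43 a membrane-bound growth cone protein, rose by 0.61 in PQ (adjusted p = 0.0026), from 22.47 and 29.54 FPKM to 41.57 and 39.18. Its NAC libraries had 15.94 and 20.32 FPKM, below both control libraries. Between PQ and NAC it differed by 1.18 (SE 0.13, edgeR adjusted p = 2.1e-06), whereas Gap43 differed by -1.24. Sema3a (-0.76), a secreted guidance cue, and Nrp2 (-0.62), a receptor of the semaphorin family, fell in NAC. Counts of Sema3a were fractional in 6 libraries and those of Nrp2 in 5, so some of their reads may belong to other genes.

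Markers of differentiated neurons were mostly higher in PQ than in NAC where they were called. Of 46, 18 were tested, and 8 were called higher and 0 lower in PQ, against a background of 9.76% higher. In the lower direction edgeR had 1 at an unadjusted p under 0.05 and DESeq2 called 0. Without PQ library 2 the counts were 5 and 0. The median over the list was 0.37. Celf5 (1.35), Grin1 (1.22) and Celf4 (0.77), which code for RNA-binding proteins and a glutamate receptor subunit, led this group, and Celf5 reached the filter through the PQ libraries. Celf4 and Celf5 had fractional counts in all 6 libraries, and Eno2 in 5. In NAC 5 were called higher (Nsg2, 1.39, and Scg3, 0.93, among them, Nsg2 reaching the filter through the NAC libraries) and 5 lower, which included the neuronal enolase Eno2 (-1.16), Celf4 (-1.15) and the neurofilament gene Nefm (-0.99). The summed level of all 46 was 425.2 and 446.5 FPKM in control, 543.5 and 534.5 in PQ, and 328.4 and 357.8 in NAC, most of it from Uchl1, Eno2 and Nefl, which averaged 138, 60.3 and 41.0 FPKM. In PQ against NAC 10 of the 18 were called higher and 4 lower, with Celf4 (1.92), Nefl (1.53) and Nefm (1.5) leading and Nsg2 (-2.42) lowest. Over all genes tested, 16.0% were called higher and 15.7% lower in that comparison. All markers of this list called in PQ against control were higher. Of the genes followed here, Stmn1 was called lower in PQ, and so was Tubb3 in the fit without a filter. The Tubb3 call was lost without control library 1 or PQ library 2, and Map1b, Map2, Gap43, Sox11 and Dlx2 were not called. Of the 11 genes of the REST corepressor complex, which represses neuronal genes outside neurons, 0 were called higher and 2 lower in PQ, and 1 higher (Ctdsp2, 0.45, lost without NAC library 2) and 2 lower in NAC. In the higher direction in PQ, edgeR had 0 at an unadjusted p under 0.05 and DESeq2 called 0. The PQ count was 1 under limma and without control library 2, PQ library 1 or PQ library 2. Rcor2 was called lower in both, in PQ not without PQ library 1 (43.04 and 46.01 FPKM in control, 30.05 and 32.5 in PQ, 20.17 and 26.45 in NAC). Ctdsp2 had fractional counts in 4 libraries.

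**Figure D4:**
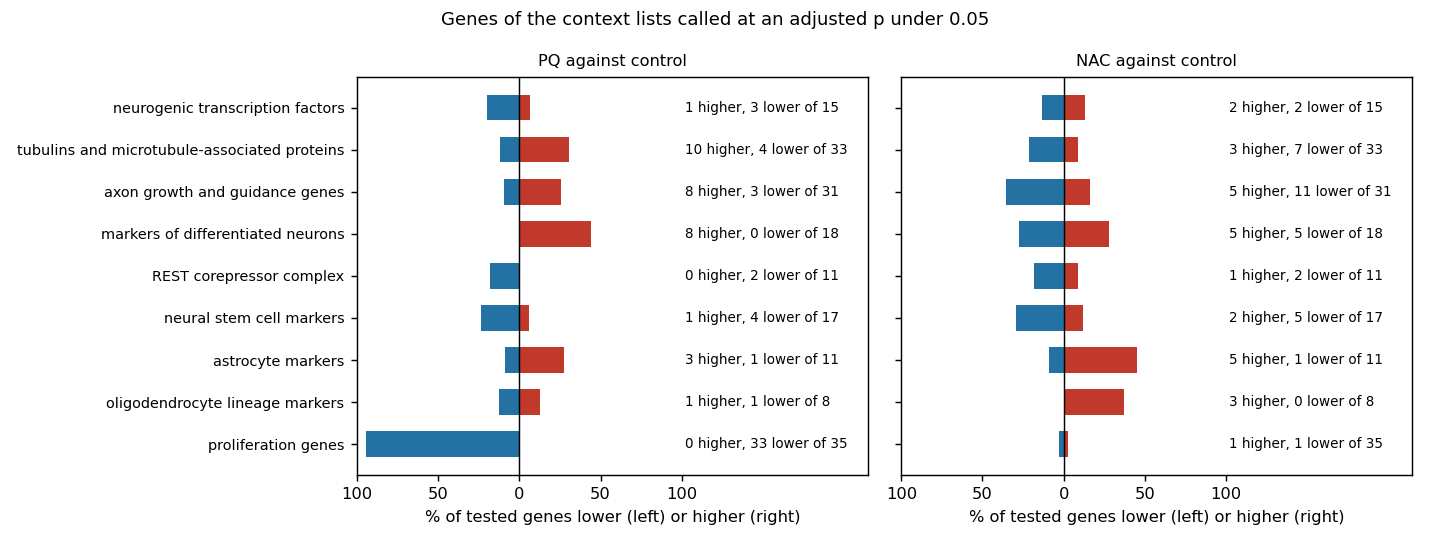
Share of the tested genes of 9 lists called higher (red, right) or lower (blue, left) in PQ and in NAC against control, with the counts printed beside each bar. Proliferation genes stand out with 33 of 35 lower in PQ and 1 of 35 in NAC, and the markers of differentiated neurons with 8 of 18 higher in PQ.

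Markers of the other cells the culture could hold moved as well, and their part in the changes of the 9 genes was not tested. Neural stem cell markers summed to 5970 and 5912 FPKM in control, 6044 and 6206 in PQ, and 4162 and 4204 in NAC. Most of this came from Vim, Lgals1 and Fabp7, which averaged 2070, 1840 and 808 FPKM. Vim (-0.75), Lgals1 (-0.81) and Cd24a (-0.95) were lower in NAC, whereas Sox3 (0.68) and Slc1a3 (0.29) were higher. The Sox3 call was lost without NAC library 2, and the Slc1a3 call with the labelled batch as a term and with the replicate block. Nes (0.34) was higher in PQ, and Nr2e1 (-0.66), Sox3 (-0.65) and Slc1a3 (-0.48) were lower. The Nes call was lost without PQ library 1 or PQ library 2, and this Sox3 call without control library 2 or PQ library 2. Of 17 tested, 1 was called higher and 4 lower in PQ, and 2 higher and 5 lower in NAC. The NAC counts were 1 and 3 with the labelled batch as a term, with the replicate block or without NAC library 1, and 0 and 3 without NAC library 2. The PQ counts were 0 and 3 without PQ library 1 and 0 and 2 without PQ library 2. Astrocyte markers summed to 245.8 and 242.8 FPKM in control, 295.1 and 295.9 in PQ, and 305.7 and 310.6 in NAC. Of 11 tested, 3 were called higher and 1 lower in PQ (1 and 1 without PQ library 1), and 5 higher and 1 lower in NAC. Apoe rose by 1.30 in PQ and by 1.96 in NAC. In NAC, Gfap (1.23), the intermediate filament of astrocytes, and Aqp4 (1.76), which reached the filter through the NAC libraries, were higher. Gja1, the most abundant marker of the list, was lower in NAC (-0.43), and Fgfr3 was lower in PQ (-1.01). Among 8 tested oligodendrocyte lineage markers, 3 were called higher in NAC (Olig1 by 0.41) and 0 lower (0 at an unadjusted p under 0.05 in edgeR and 0 with DESeq2). All 3 higher calls were lost with the labelled batch as a term and without control library 1 or NAC library 2, and 1 was left under limma. In PQ 1 was called higher and 1 lower, and 0 of both without PQ library 1. The summed levels of this list, 754.1 to 857.4 FPKM in control, 774.9 to 877.8 in PQ and 925.7 to 1040 in NAC, overlapped between control and PQ. Microglia markers were nearly absent, with 9 of 12 at 3 counts or fewer, Aif1 and Csf1r included. The marker tested, P2ry12, had 1.28 to 3.88 FPKM and was called higher in NAC (1.18, adjusted p = 0.0033), a call lost without NAC library 1. Endothelial and mural markers summed to 13.87 to 20.57 FPKM, nearly all of it Flt1, and Cldn5, Cdh5 and Pdgfrb stayed at 3 counts or fewer. Flt1 was called higher in PQ (0.45, adjusted p = 0.0077), but not without PQ library 2.

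The genes whose pattern was nearest to that of Map1b and Gap43, the members that passed the filter and had a called log2 fold change of at least 1 in size against control, were found by the root mean square difference of log2 CPM over the 6 libraries, each gene being centred on its control mean. For Map1b these were Glipr2 (0.122), Prelid2 (0.131) and Mgarp (0.164). Glipr2 had 37.44 and 31.45 FPKM in control, 30.58 and 32.4 in PQ, and 11.7 and 11.73 in NAC. For Gap43 they were Cpne8 (0.106), Acsbg1 (0.119) and Astn1 (0.122). Astn1, which codes for a neuron-glia adhesion protein, had 3.69 and 3.92 FPKM in control, 4.02 and 3.24 in PQ, and 8.23 and 8.45 in NAC, close to Gap43 in level too.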

How the data were processed

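RNA-seq was analysed from 6 NSPC libraries, 2 each of control, PQ and NAC, grouped by their labels. For each library the authors deposited expected counts per gene, which are estimates that share reads between genes (78.6 to 79.1% of those above 0 were exactly whole as deposited), and FPKM values. Genes without reads are not listed and were taken as 0. All 6 tables have the columns that RSEM writes. The submitters' processing notes name HISAT2 2.0.4, Bowtie2 2.2.5 and RSEM with mm10 for 4 libraries, and bcl2fastq 2.17, cutadapt, TopHat2 2.0.11 and Cufflinks 2.1.1 with mm9 for control library 1 and PQ library 1, as the paper's methods do for the last 2 tools. The tables hold no coordinates. Symbols (for 99.7% of the genes), positions and promoter windows are those of RefSeq on GRCm38.p6, the mm10 assembly. Overlapping genes were looked up in GENCODE vM1.

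Expected counts were rounded, scaled by TMM and tested with glmQLFit and glmQLFTest of edgeR 4.0.16 (R 4.3.3) on all 6 libraries without covariates, keeping genes whose FPKM averaged 1 or more, and p-values were adjusted by the Benjamini-Hochberg method. The F statistic and the log2 fold change gave the standard errors. The scripts were tested on simulated counts. No file held columns of other samples. Alternatives were DESeq2 1.42.0 and its size factors, limma 3.58.1 on log2(FPKM + 1) and log2(FPKM + 0.1), no filter, the labelled batch as a term, a replicate block, only the libraries compared and leaving out each library. The filterByExpr filter of edgeR, and the block, batch and leave-one-out fits without a filter, were chosen after seeing the data.

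The 9 genes and the gene lists were chosen with earlier results of these data known. From each list up to 3 called genes with the largest rise and up to 3 with the largest fall in a comparison could be named, the 9 genes left out, together with Cdkn2a, the highest and the defining genes of the marker lists and the 3 genes nearest in pattern to Map1b and to Gap43. Some genes that this rule names are not reported here. Other experiments of the study were not analysed here.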

Additional observations from a re-analysis of the deposited data

How the results depend on the processing

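The calls of Map1b, Map2 and Gap43 in NAC against control, and of Stmn1 in PQ against control, were kept with the same direction under all 15 alternatives run for each, with values from -1.78 to -1.55, 0.68 to 0.85, 1.09 to 1.36 and -0.63 to -0.47. In PQ against control 2 of the 9 genes were called (Stmn1 and Tubb3) both with no filter and with filterByExpr, since Tubb3 then entered the test, with an adjusted p of 0.011 under filterByExpr in place of 0.0016 (in NAC against control, 0.0017 in place of 1.7e-05). Values near 0 changed sign: in PQ against control Map1b was 0.02 and Gap43 0.00 under limma with either pseudocount, and in NAC against control Sox11 was -0.02 with the labelled batch as a term. With 1 library left out, PQ against control ranged from -0.12 to 0.63 for Dlx2, -0.07 to 0.05 for Map1b and -0.18 to 0.13 for Gap43, and NAC against control from 0.00 to 0.02 for Sox11. Of the list counts under alternatives, 53 moved by more than 1.5 times and 442 did not. The labels carry no replicate numbers. With the sets of the study's Source Data as a replicate block, the calls over all genes changed from 2250 to 1798 in PQ against control, from 2186 to 1804 in NAC against control and from 3708 to 3243 in PQ against NAC, and no call of the 9 genes changed. Deviations of same-set libraries correlated at -0.1, -0.2 and 0.14 over the 3 pairs of groups. Leaving out PQ library 1 left 866 calls in PQ against control and 2343 in PQ against NAC, and leaving out NAC library 1 or NAC library 2 left 1286 or 1427 in NAC against control and, for NAC library 1, 2407 in PQ against NAC. These fits have fewer libraries by construction. Differences in Dcx and Stmn2 were not assessed at this depth, and those in Tubb3 and Dlx2 rest on at most 51 counts a library.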
